A study of Homo sapiens with 12 samples.

Results

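The RNA described here is the input RNA of HEK293T cells given 1 of 2 synthetic microRNA duplexes, that is, the RNA of the transfected cells before any capture. Of the 12 arrays in the series, 6 carried input RNA and were chosen by their titles: 3 from cells given the miR-199a-5p duplex and 3 from cells given the miR-424-3p duplex. The other 6 carried RNA captured with the same duplexes on streptavidin beads. HEK293T is an established human kidney line of embryonic origin, made to express the large T antigen of SV40. All cells of both groups received 200 pmol of a biotinylated duplex with the reagent HiPerFect and were harvested after 24 hours, so by the labels the groups differ only in the microRNA. A figure legend of the study names miR-199b-5p, a family member with the same seed, where the labels name miR-199a-5p, and the labels are followed here. That legend calls the inputs total RNA, describes them as closely related and concludes that both duplexes had little effect on them. No untransfected or mock-transfected sample was analysed here, and each group served as the only control of the other: a change that both duplexes brought about, or that transfection itself brought about, would not appear. Which of the 2 groups moved cannot be told apart either, so higher and lower below mean higher or lower in the miR-199a-5p inputs relative to the miR-424-3p inputs. The comparison asks whether the starting RNA already differed between the transfections.

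A microRNA is a short RNA that Argonaute proteins use to find target mRNAs, mainly by pairing of its seed, bases 2 to 8 from the 5′ end, and targets are as a rule translated less or degraded sooner. The transfected strands are both known from human cells. miR-199a-5p is made from loci inside introns or antisense transcripts of dynamin genes and is abundant in mesenchymal cells, whereas miR-424-3p is the arm that usually accumulates less from a hairpin on the X chromosome. The other arm of that hairpin, miR-424-5p, belongs to the miR-15/16 family, whose known targets include cyclins. The sequences are shown because the seeds are what tells the transfections apart, and they come from RefSeq, build GRCh38.p14. Capitals mark the seed, and miR-424-5p, which was not the microRNA named for these samples, is given for comparison with the strand that was.
hsa-miR-199a-5p: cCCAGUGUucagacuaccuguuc
hsa-miR-424-3p: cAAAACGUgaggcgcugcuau
hsa-miR-424-5p: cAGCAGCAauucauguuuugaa
No seed is shared among the 3. A full match to the miR-199a-5p seed in an mRNA reads ACACUGG, a match to the miR-424-3p seed reads ACGUUUU and a match to the miR-424-5p seed reads UGCUGCU. The miR-199a-5p sequence is encoded by 2 genes, MIR199A2 at chr1:172144592-172144614 and MIR199A1 at chr19:10817469-10817491, and miR-424-3p lies at chrX:134546644-134546664, all on the minus strand. The second strand of either synthetic duplex was not described for these samples. No probe of MIR199A1, MIR199A2 or MIR424 was among those listed, so the transfected RNA could not be followed on these arrays.

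The values were normalized log2 signals of 15329 probes of an Illumina HT-12 BeadChip, and over the 6 input arrays they ran from 7.60 to 15.10 with a median of 9.16. Array medians lay between 9.15 and 9.18. Pairs of arrays correlated across probes at r = 0.988 to 0.994 within the miR-199a-5p inputs, at 0.988 to 0.994 within the miR-424-3p inputs and at 0.977 to 0.995 between the groups, so that arrays of different groups were about as alike as arrays of one group. The median SD between the 3 arrays was 0.111 log2 units in the miR-199a-5p inputs and 0.116 in the miR-424-3p inputs. The replicates are described as independent without a statement that they were separate cultures, so p-values measure the spread between samples, which may be technical. That spread was pooled over inputs and pull-downs, so the SE and interval of an input difference also carry the spread between the pull-downs. With 3 arrays per group, their number limits the precision of every value.

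Genes that mark this line were measured, some of them at high levels and some at low ones. Each of the 9647 genes with a single symbol was represented by its brightest probe. Of 9 genes listed as typical of HEK293 cells, 8 had a probe. KRT8, NEFL and KRT18 had means of 8.86, 8.72 and 8.57 over the 6 inputs, under the median of all input values (9.16), and INA one of 9.575. VIM, an intermediate filament protein, lay between 13.77 and 13.88 in the miR-199a-5p inputs and between 13.74 and 13.97 in the miR-424-3p inputs. LIN28B, an RNA-binding protein that blocks let-7 maturation, lay between 11.60 and 12.07 against 11.66 and 11.98, and CDH2, N-cadherin, between 11.90 and 12.08 against 11.98 and 12.23. NEFM, a neurofilament subunit, was at 10.29, 10.04 and 10.20 in the miR-199a-5p inputs and at 9.76, 9.96 and 9.91 in the miR-424-3p inputs, the only marker of the 8 whose groups did not overlap, though it was not called (0.30 ± 0.17, ± SE). Of 10 fibroblast genes, 11 blood genes, 4 endothelial genes and 4 hepatocyte genes, the listed probes covered 1, 1, 0 and 1. These 3 genes lay near the low end of the scale on every input: COL1A1 between 7.82 and 8.14, HBA2 between 7.88 and 8.70 and ALB between 8.22 and 8.66. The values of KRT18, KRT8 and NEFL overlapped those of HBA2 and ALB. In RNA from many cells at once, less of a transcript in each cell and fewer cells that hold it cannot be told apart, and the share of cells that took up a duplex was not measured.

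Levels across the genes and their spread set what could be seen. A mean under 8 was found for 947 genes (9.82%), one of 8 to 9 for 3030 (31.4%), one of 9 to 11 for 3844 (39.8%) and one of 11 or more for 1826 (18.9%). Within a group the median SD was 0.074 log2 units for the genes under 8 and 0.114, 0.141 and 0.138 in the classes above. The authors' variance-stabilizing transformation compresses low signals, so a difference in the lowest class understates the change in RNA.

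Few probes differed between the input RNAs of the transfections. In limma's moderated test, 1 of 15329 probes was higher in the miR-199a-5p inputs and 2 were lower at an adjusted p under 0.05, which is 0.00652% and 0.0130% of the probes. Before adjustment, 635 probes were higher and 647 lower at p under 0.05. The median difference over all probes was -0.0037 log2 units, and 98 in 100 probes lay between -0.38 and 0.38. A difference of 2-fold was reached by 1 probe, whereas 13 probes were at least 1.5-fold higher and 18 at least 1.5-fold lower. On the deposited scale, the 95% interval of the difference lay wholly within 2-fold for 15303 probes (99.8%) and wholly within 1.5-fold for 14319 (93.4%). For the remaining probes a change past that size was not excluded by their own interval. Low signals are compressed on that scale, so for dim probes such an interval does not bound the change in RNA. The count of calls depended on how arrays were weighted: with weights estimated for each array, which gave replicate 2 of the miR-199a-5p inputs a weight of 5.26 and every other input 1.74 or less, 160 probes were higher and 139 lower.

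**Figure D1:**
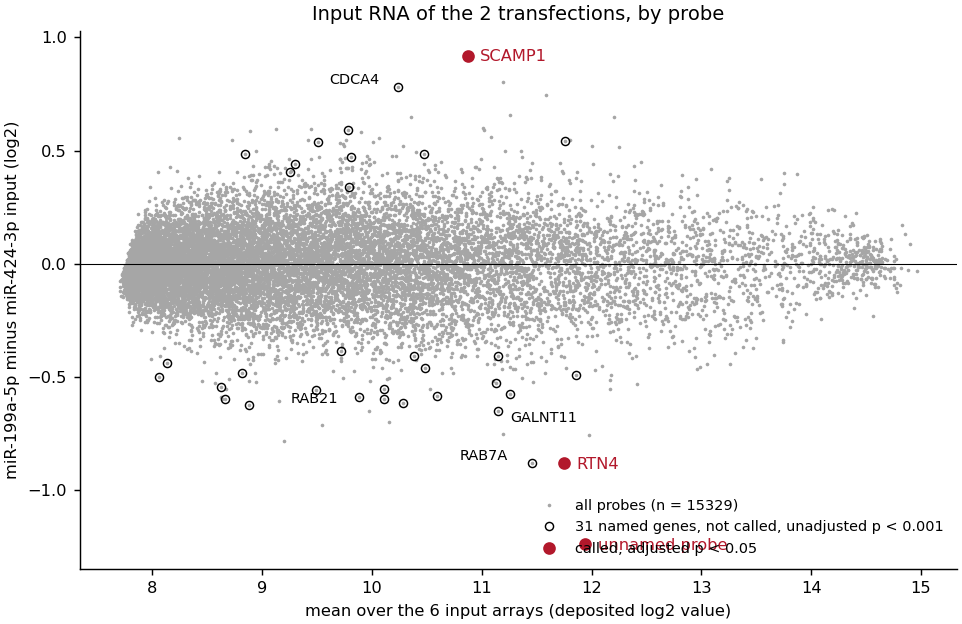
Difference between the inputs (miR-199a-5p minus miR-424-3p, log2, vertical axis) against the mean of the 6 input arrays (deposited log2 value, horizontal axis), 1 point per probe. The red points are the 3 probes called at an adjusted p under 0.05, and the open circles are 31 genes that were not called and had an unadjusted p under 0.001.

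The mRNA of RTN4 was lower in the miR-199a-5p inputs. RTN4 encodes a reticulon, a membrane protein that bends the endoplasmic reticulum into tubules and whose longest form is known as Nogo-A. Its probe ILMN_1730611 stood at 11.26, 11.23 and 11.43 in the miR-199a-5p inputs and at 12.20, 12.27 and 12.09 in the miR-424-3p inputs. The groups did not overlap, and the gap between them was far wider than the spread in either. The means were 11.31 ± 0.11 and 12.19 ± 0.09 (SD, n = 3 each), a difference of -0.88 ± 0.09 (± SE, 95% interval -1.07 to -0.70) or 1.84-fold, with an adjusted p of 0.000496 in limma's test. A second probe, ILMN_2352036, is annotated to another RTN4 transcript. It read 9.59, 9.76 and 10.07 in the miR-199a-5p inputs and 10.66, 10.47 and 10.39 in the miR-424-3p inputs, also without overlap, and its difference of -0.70 ± 0.13 was not called (adjusted p = 0.130). The call on the first probe was made in all 17 alternative fits, in which its difference lay between -0.94 and -0.84, and the mean of both probes was called too (-0.79).

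Of the 14 measured genes that shape the endoplasmic reticulum, RTN4 was the only one called. RTN2, a reticulon best known from muscle and nerve, stood at 8.50, 8.59 and 8.48 in the miR-199a-5p inputs and at 8.73, 8.78 and 8.79 in the miR-424-3p inputs, without overlap, at -0.25 ± 0.09 (adjusted p = 0.482). RTN1, at -0.02 ± 0.09, and RTN3, at 0.06 ± 0.11 and on its second probe at 0.21 ± 0.10, had overlapping groups. So had the atlastins ATL1 (-0.04 ± 0.12) and ATL3 (0.02 ± 0.09), GTPases that fuse tubules, the sheet protein CKAP4 (-0.05 ± 0.11), and REEP5 (-0.03 ± 0.14), which bends membranes as reticulons do. The list's median was -0.03 against -0.01 over all 9647 genes. For 13 of the 14 the 95% interval lay within 1.5-fold on the deposited scale.

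SCAMP1 was the gene that was called higher. Its product is a secretory carrier membrane protein of the vesicles that cycle between the trans-Golgi network, endosomes and the cell surface. Probe ILMN_1728907 stood at 11.25, 11.15 and 11.59 in the miR-199a-5p inputs and at 10.38, 10.48 and 10.37 in the miR-424-3p inputs. All 3 of the first were above all 3 of the second, with replicate 3 the highest. The means were 11.33 ± 0.23 and 10.41 ± 0.06 (SD, n = 3 each), a difference of 0.92 ± 0.12 (95% interval 0.66 to 1.18) or 1.89-fold, with an adjusted p of 0.0107. The call, more than the difference, depended on the fit. Without miR-199a-5p replicate 3 the difference was 0.79 (adjusted p = 0.05002), without miR-424-3p replicate 3 it was 0.90 (0.114), with only the 6 inputs 0.92 (0.0867) and without replicate 1 of both groups 0.94 (0.140).

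The 2 other SCAMP1 probes did not show a difference of that size. ILMN_3251337, at 8.11, 8.22 and 8.14 against 8.05 or less in the miR-424-3p inputs, differed by 0.16 ± 0.10 (95% interval -0.05 to 0.37). ILMN_1729058 differed by 0.05 ± 0.08 (-0.11 to 0.21). Both gave low values, where the scale is compressed, and averaging the 3 probes gave 0.38 (adjusted p = 0.191). All 3 are annotated to the same transcript. The paralogues SCAMP2 (-0.07 ± 0.15), SCAMP3 (0.10 ± 0.15), SCAMP4 (-0.14 ± 0.10) and SCAMP5 (-0.10 ± 0.13) had overlapping groups and were not called.

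The largest difference of all belonged to a probe that the annotation used here does not list, ILMN_1796177, which therefore has no gene name in this text. It stood at 11.40, 11.45 and 11.13 in the miR-199a-5p inputs and at 12.71, 12.57 and 12.40 in the miR-424-3p inputs. The difference was -1.24 ± 0.12 (95% interval -1.48 to -0.99) or 2.36-fold, with an adjusted p of 0.000496, and it was called in all 17 alternative fits.

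**Figure D2:**
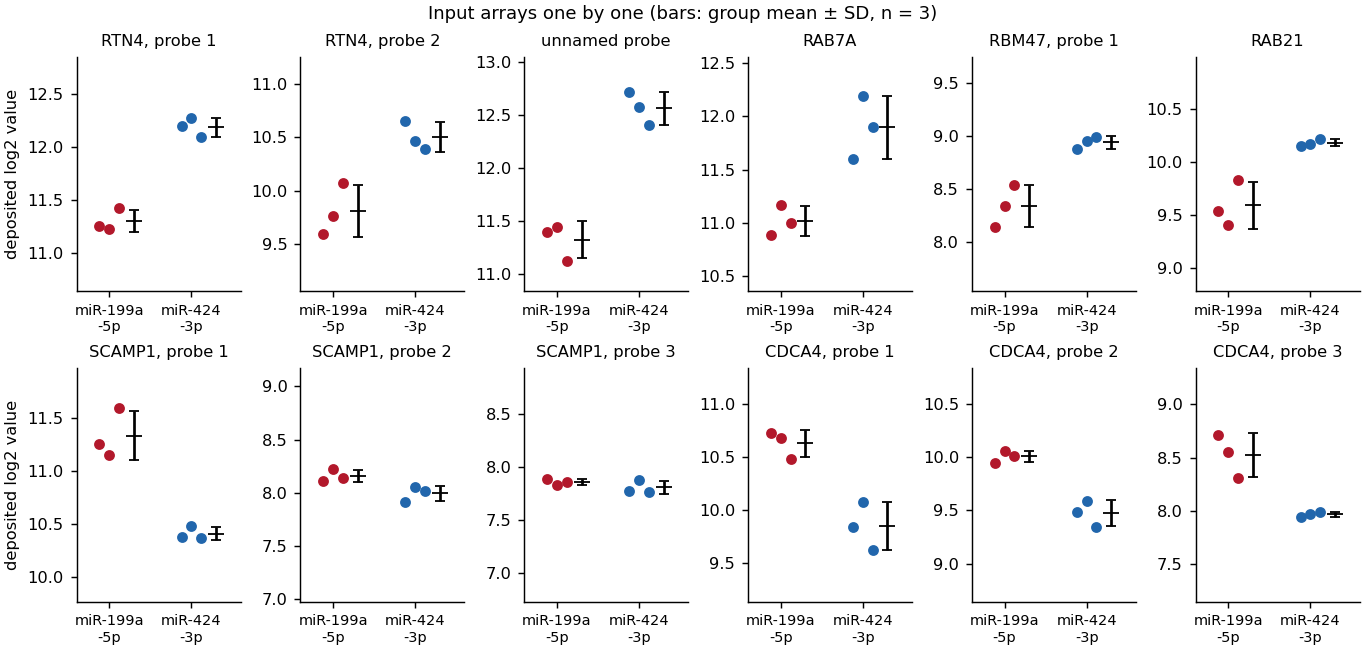
Deposited log2 values of the 3 miR-199a-5p inputs (red, left) and the 3 miR-424-3p inputs (blue, right) for 12 probes, with bars for the group mean ± SD. Every panel spans the same range of log2 values, probes of RTN4, SCAMP1 and CDCA4 are numbered by brightness, the RBM47 panel shows the probe with a difference of -0.60, and the groups do not overlap except in SCAMP1 probe 3.

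Below the threshold, 31 more genes were chosen after their values were seen, as those with an unadjusted p under 0.001 and no overlap between the groups. None of them was called, and 21 were lower and 10 higher. The difference of RAB7A, the GTPase of late endosomes and lysosomes, was as large as that of RTN4 but less even: 10.89, 11.16 and 11.003 in the miR-199a-5p inputs against 11.60, 12.19 and 11.90 in the miR-424-3p inputs, or -0.88 ± 0.14 (adjusted p = 0.0561). GALNT11, an enzyme that starts O-linked glycans, differed by -0.65 ± 0.12, LEPROT, which holds back receptors of growth hormone and leptin, by -0.62 ± 0.12 and PEDS1, the desaturase that makes plasmalogens, by -0.62 ± 0.12. The glucose transporter SLC2A3 stood at -0.60 ± 0.13, the lysophosphatidic acid acyltransferase AGPAT1 at -0.57 ± 0.12, the SH3 adaptor SH3D19 at -0.55 ± 0.09, the telomerase RNA TERC at -0.50 ± 0.10 and the laminin chain LAMC1 at -0.46 ± 0.11. Adjusted p-values of the 21 lower genes lay at 0.0561 or above.

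On the higher side CDCA4, a nuclear protein of the cell cycle that acts on E2F-dependent transcription, came first. It was measured by 3 probes. The brightest read 10.72, 10.68 and 10.48 in the miR-199a-5p inputs and 9.84, 10.07 and 9.63 in the miR-424-3p inputs (0.78 ± 0.12, adjusted p = 0.0561), and the others differed by 0.53 ± 0.11 and 0.56 ± 0.14, each without overlap. RAPGEF2, an exchange factor for RAP GTPases, stood at 0.59 ± 0.14, the RNA-binding protein HNRNPA0 at 0.54 ± 0.11, JARID2, a partner of the Polycomb complex PRC2, at 0.54 ± 0.11, and RNGTT, the mRNA capping enzyme, at 0.49 ± 0.12. COPS2, a subunit of the COP9 signalosome, was at 0.49 ± 0.11 and the chromatin remodeller SMARCA1 at 0.44 ± 0.10. A second SMARCA1 probe differed by only 0.10, with overlapping groups.

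Genes with several probes were also compared probe by probe, a step added after values were seen. Of 2337 genes with 2 or more probes, every probe separated the groups in the same direction for 35 higher and 26 lower genes. By the brightest probe alone, a looser condition, 5.60% of all genes were higher and 8.57% lower without overlap. In 5 of them each probe differed by at least 0.5 log2 units: RTN4 and CDCA4, and besides these CCND2, RBM47 and UBE2Z. CCND2, a D-type cyclin that drives the passage out of G1, read 12.35, 12.62 and 12.60 in the miR-199a-5p inputs and 11.58, 12.01 and 12.04 in the miR-424-3p inputs on its brighter probe (0.65 ± 0.17), and its other probe differed by 0.80 ± 0.21. Replicate 1 was the lowest array of either group on both CCND2 probes. RBM47, an RNA-binding cofactor of APOBEC1, was lower by both probes (-0.60 ± 0.11 and -0.55 ± 0.10), as was UBE2Z, a ubiquitin-conjugating enzyme that works with UBA6 (-0.55 ± 0.12 and -0.51 ± 0.12). None of CCND2, RBM47 and UBE2Z was called, and probes of one gene share its RNA and are not replicates.

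Some reported targets of miR-199a-5p lay apart between the inputs, without a call. Of 25 genes listed from general knowledge 18 had a probe, and none was called in either direction. At an unadjusted p under 0.05, 1 was higher and 2 lower, where 3.32% of all genes were higher and 4.99% lower. Without overlap 1 was higher and 3 lower, where 5.60% of all genes were higher and 8.57% lower. The median difference of the 18 was -0.04 against -0.01 over all genes. For 16 of the 18 the 95% interval lay within 1.5-fold on the deposited scale. RAB21, a GTPase of early endosomes that carries integrins, had the lowest value, with 9.54, 9.40 and 9.83 in the miR-199a-5p inputs and 10.15, 10.17 and 10.22 in the miR-424-3p inputs. Its groups did not overlap, and its difference was -0.59 ± 0.12 (95% interval -0.84 to -0.34, adjusted p = 0.145).

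Other reported targets are given with their values, none of them called. The kinase MAP3K11 read 8.60, 8.73 and 8.55 in the miR-199a-5p inputs and 9.17, 8.88 and 8.91 in the miR-424-3p inputs (-0.36 ± 0.10), and DDR1, a collagen receptor, differed by -0.26 ± 0.13, both without overlap. RAB5A, the master GTPase of early endosomes, went the other way, with 10.60, 10.49 and 10.67 against 10.07, 10.31 and 10.20 (0.39 ± 0.10). HIF1A, the oxygen-regulated transcription factor, had overlapping groups and a difference of 0.27 ± 0.14 (95% interval -0.03 to 0.58), and its 2 other probes differed by 0.39 ± 0.16 and 0.14 ± 0.11. SIRT1, the deacetylase, was at 0.16 ± 0.13, the caveolae protein CAV1 at -0.04 ± 0.10, the kinase GSK3B at -0.10 ± 0.11, ATF6, a sensor of unfolded proteins, at -0.03 ± 0.11, and the chaperone HSPA5 at 0.04 ± 0.11. For these 5 the 95% interval reached no further than 0.44 on either side.

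The miR-16 family targets were examined because miR-424-5p, the opposite arm to the transfected miR-424-3p, belongs to that family. Of 20 listed genes 17 had a probe, none was called, and the median was 0.07. Without overlap 3 were higher and 1 lower, where 5.60% of all genes were higher and 8.57% lower. At an unadjusted p under 0.05, 4 were higher and 2 lower, where 3.32% of all genes were higher and 4.99% lower. The higher ones included CCND2 and CCND1, both D-type cyclins, and WEE1, the kinase that restrains CDK1. CCND1 read 9.86, 10.03 and 9.93 in the miR-199a-5p inputs and 9.37, 9.52 and 9.55 in the miR-424-3p inputs, a difference of 0.46 ± 0.16 (95% interval 0.13 to 0.80). WEE1 differed by 0.31 ± 0.12 with overlapping groups. CCNE1, cyclin E1, went the other way at -0.37 ± 0.11, as did the focal adhesion protein ZYX at -0.30 ± 0.14, and BCL2 (0.10 ± 0.12), CHEK1 (-0.01 ± 0.11) and E2F3 (0.03 ± 0.15) had intervals that included 0.

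Genes of the interferon response, which double-stranded RNA can switch on through cytoplasmic sensors, differed little between the inputs. Of 48 listed genes 24 had a probe, none was called, and the median was -0.05. At an unadjusted p under 0.05, 0 were higher and 1 lower, where 3.32% of all genes were higher and 4.99% lower. For all 24 the 95% interval lay within 1.5-fold on the deposited scale, which is compressed at low values and so does not bound the change in RNA there. IRF7, a transcription factor of interferon genes, stood at 8.31, 8.39 and 8.30 in the miR-199a-5p inputs and at 8.77, 8.54 and 8.52 in the miR-424-3p inputs (-0.28 ± 0.09, adjusted p = 0.440), and a second IRF7 probe differed by -0.12 ± 0.12. EIF2AK2, the kinase PKR, which binds double-stranded RNA, was at -0.25 ± 0.15 with overlapping groups. IFIT1 (0.06 ± 0.13), ISG15 (-0.10 ± 0.14), OAS1 (-0.05 ± 0.09) and IFI27 (-0.12 ± 0.09) gave values between 7.65 and 8.39 on all 6 inputs, near the low end of the scale. Since no untransfected sample was analysed, an equal response to both duplexes would not show in this comparison.

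Among the silencing machinery, the genes that make and use microRNAs, none of 25 measured was called. At an unadjusted p under 0.05, 3 were higher and 1 lower, against 3.32% and 4.99% of all genes. Without overlap 5 were higher and 1 lower, against 5.60% and 8.57% of all genes, so the higher shares exceeded those of all genes. DCP2, the decapping enzyme, read 11.37, 11.60 and 11.86 in the miR-199a-5p inputs and 10.93, 11.24 and 11.16 in the miR-424-3p inputs (0.50 ± 0.13). DICER1, which cuts precursors into duplexes, read 10.54, 10.39 and 10.44 against 10.11, 10.09 and 9.96 (0.40 ± 0.12), and its second probe also lay higher without overlap. CNOT2, of the CCR4-NOT deadenylase, differed by 0.32 ± 0.11 and CNOT3, of the same complex, by -0.34 ± 0.13. AGO1 (0.08 ± 0.09), AGO2 (-0.18 ± 0.15), AGO3 (0.06 ± 0.08), TNRC6A (0.11 ± 0.14) and TNRC6B (0.07 ± 0.11) lay within 0.51 of 0 at either end of their 95% intervals.

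RAB GTPases, the switches of vesicle traffic, spread more widely than their median of -0.03. Of 40 measured genes 8 were lower and 2 higher at an unadjusted p under 0.05, 6 were lower and 1 higher without overlap, and none was called. Over all genes 4.99% were lower and 3.32% higher by that p, and 8.57% were lower and 5.60% higher without overlap. RAB7A and RAB21 were the lowest and RAB5A the highest, and RAB40C, a subunit of a ubiquitin ligase, stood at 0.34 ± 0.12. Of 34 SNAREs and fusion factors, with a median of 0.05, 4 were higher and 4 lower without overlap. At an unadjusted p under 0.05, 2 of them were higher and 3 lower. NAPA and NAPB, which help take SNARE complexes apart, were at -0.36 ± 0.15 and -0.32 ± 0.08, and the endosomal SNARE VAMP3 at -0.35 ± 0.13, all without overlap, while STX7 was at 0.29 ± 0.12. Vesicle coats, with 40 genes, had a median of 0.02 and 2 higher and 1 lower at an unadjusted p under 0.05.

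More small RNAs of the nucleus and cytoplasm lay lower than higher in the miR-199a-5p inputs. Of 98 such genes, 27 were lower and 4 higher without overlap, where 8.57% and 5.60% of all genes were. At an unadjusted p under 0.05, 17 were lower and 1 higher, where 4.99% and 3.32% of all genes were. The median was -0.14, and none was called. Without miR-199a-5p replicate 3 the median was -0.09, and over all alternatives it lay between -0.17 and -0.09. The genes differed by class, a split made after the values were seen. Of 9 small Cajal body RNAs, which guide the modification of spliceosomal RNA, 7 were lower without overlap, with a median of -0.25. Of 38 H/ACA snoRNAs, which guide pseudouridylation of ribosomal RNA, 10 were lower and 0 higher (median -0.14). Of 34 C/D snoRNAs, which guide methylation, 4 were lower and 4 higher (median -0.01). Of 9 RNAs with RNU symbols, such as RNU1-1 and RNU6-1, 2 were lower and 0 higher (median -0.17). Of the other 8, such as RPPH1 and RN7SK, 4 were lower and 0 higher (median -0.24). The C/D snoRNAs were thus the class without a lean to lower values.

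The members with the largest differences were scaRNAs and snoRNAs of the H/ACA class. SCARNA18 read 9.45, 9.44 and 8.69 in the miR-199a-5p inputs and 10.09, 10.12 and 9.50 in the miR-424-3p inputs (-0.71 ± 0.24), and SCARNA16 read 8.82, 8.88 and 8.35 against 9.36, 9.31 and 8.94 (-0.52 ± 0.18). In both, replicate 3 was the lowest array of either group. SNORA27 differed by -0.55 ± 0.16, SNORA12 by -0.48 ± 0.15 and SNORA9 by -0.44 ± 0.10. RPPH1, the RNA of ribonuclease P, stood at 8.16, 8.13 and 7.93 against 8.61, 8.34 and 8.31 (-0.35 ± 0.13). RN7SL1, the RNA of the signal recognition particle, lay between 14.20 and 14.31 in the miR-199a-5p inputs and between 14.28 and 14.29 in the miR-424-3p inputs, a difference of -0.02 ± 0.10. Many of these RNAs lack a poly(A) tail, and labelling kits of the kind used for these arrays prime on that tail. The labels name the Ambion MessageAmp kit for this step and the study's methods the Illumina TotalPrep kit.

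RNA18SN5 and RNA28SN5, the RNAs of the ribosome's small and large subunits, had the largest spread within the groups of all genes, for which they were chosen after their values were seen. RNA18SN5 read 12.44, 12.04 and 10.74 in the miR-199a-5p inputs and 12.71, 11.88 and 11.69 in the miR-424-3p inputs, a range of over 1 log2 unit in either group. RNA28SN5 read 12.72, 12.32 and 11.39 against 13.21, 12.58 and 12.24 (-0.53 ± 0.28), and RN7SK, the scaffold of a complex that sequesters P-TEFb, read 10.38, 9.76 and 9.32 against 10.72, 9.65 and 9.83. RNA5S9, a 5S ribosomal RNA, read 10.12, 9.73 and 9.32 against 10.55, 9.81 and 9.91. Replicate 1 was the highest array of its group for each of the 4, and miR-199a-5p replicate 3 the lowest of all 6. The class means of the snoRNA and scaRNA probes were lowest in the same array. Whether what moved these probes has a part in the lower values of the small RNAs was not tested.

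**Figure D3:**
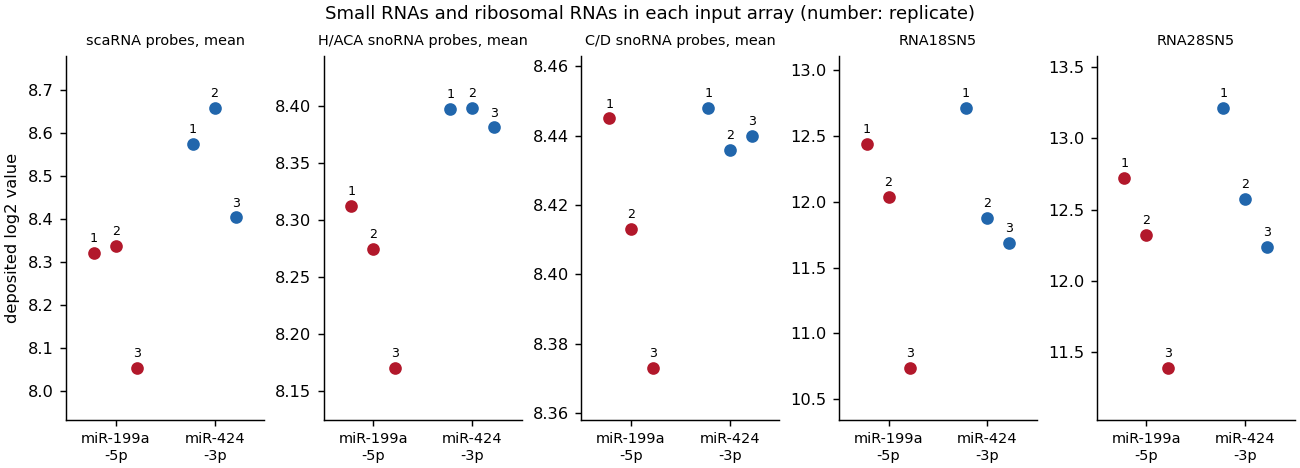
Deposited log2 values in the 3 miR-199a-5p inputs (red, left) and the 3 miR-424-3p inputs (blue, right), as the mean over the probes of 9 small Cajal body RNAs, 38 H/ACA snoRNAs and 34 C/D snoRNAs and as single probes of RNA18SN5 and RNA28SN5. Axes differ between panels, and the digit beside a point is its replicate number. miR-199a-5p replicate 3 is the lowest point in every panel.

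Most other pathways sat close to the whole array. Over all genes, 3.32% were higher and 4.99% lower at an unadjusted p under 0.05, and 5.60% and 8.57% were higher and lower without overlap, against which the small counts here are to be read. Mitotic genes had a median of 0.12, with 3 of 25 higher and 1 lower at an unadjusted p under 0.05. Of these, SPC25 (0.31 ± 0.09) and NDC80 (0.26 ± 0.09), both of the kinetochore's NDC80 complex, and ANLN (0.28 ± 0.12), the cytokinesis protein anillin, were without overlap. Leaving out 1 array put that median between 0.05, without miR-199a-5p replicate 3, and 0.18, without miR-424-3p replicate 2. Heat shock chaperones had a median of 0.11, with the co-chaperones CACYBP at 0.39 ± 0.14 and FKBP4 at -0.34 ± 0.12, and the proteasome one of 0.09, with PSMC6 at 0.44 ± 0.15. The proteasome median was 0.02 without miR-424-3p replicate 1. Of 37 DNA replication genes, 3 were higher, among them the polymerase subunits POLE (0.31 ± 0.11) and POLD3 (0.31 ± 0.09), and 2 lower, POLD2 (-0.39 ± 0.16) and CCNE1. No member of these lists was called.

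In several lists no member differed at an unadjusted p under 0.05. These held 20 genes of the unfolded protein response (median -0.02), 20 of the amino acid response (-0.0023), 20 immediate early genes (0.0010), 17 tubulins (-0.11), 15 snoRNA host genes (-0.01) and 3 metallothioneins. Among 19 hypoxia genes 2 were higher and 0 lower, BNIP3L (0.31 ± 0.14), a receptor of mitophagy, and PGK1 (0.30 ± 0.12), a glycolytic kinase. Of 12 p53 targets 1 was lower, GADD45A (-0.32 ± 0.14), a protein of the DNA damage response. In the 69 genes of the respiratory chain (0.02), the 71 cytosolic ribosomal proteins (0.02) and the 242 ZNF zinc fingers (-0.01) the members at an unadjusted p under 0.05 numbered 2 higher and 2 lower, 1 and 2, and 1 and 9. BMPR2, a receptor of bone morphogenetic proteins, stood at -0.42 ± 0.11 among 22 genes of TGF-beta and BMP signalling, the scaffold AXIN1 at -0.29 ± 0.12 and PYGO2, a coactivator with beta-catenin, at 0.33 ± 0.14 among 25 of Wnt signalling, and HSD17B7 at -0.34 ± 0.12 among 17 of sterol synthesis. Of 18 glycolysis genes 1 was higher and 0 lower, of 24 actin regulators 1 was higher and 1 lower, and of 17 replication-dependent histones 0 were higher and 1 lower (medians 0.03, -0.04 and -0.07). The histone median lay between -0.12, without miR-424-3p replicate 3, and -0.0026, without miR-424-3p replicate 1, and the tubulin median was -0.04 among probes with a mean of at least 9.

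**Figure D4:**
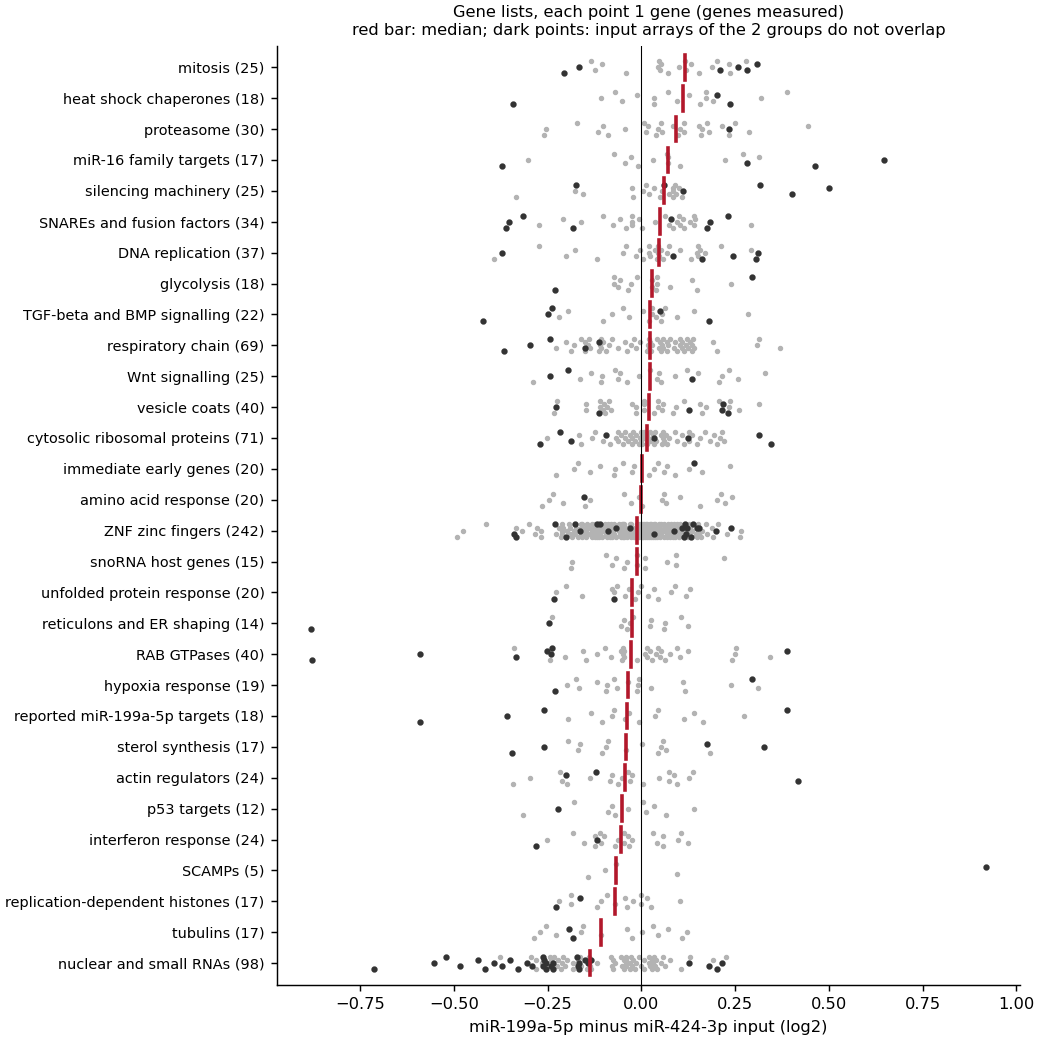
Difference between the inputs (miR-199a-5p minus miR-424-3p, log2, horizontal axis) of each measured gene of the lists with at least 4 measured genes. Red bars are list medians, which run from -0.14 for the nuclear and small RNAs to 0.12 for mitosis, and dark points are genes whose input arrays do not overlap between the groups.

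The pull-downs of the same duplexes were a second readout on 6 other arrays. There 2818 of the 9647 genes (29.2%) were called higher for miR-199a-5p and 2549 (26.4%) lower, against 1 and 1 in the inputs. The labels do not say whether an input and a pull-down of one number came from the same cells, so they may not be independent. Of the 540 genes that were higher in the inputs without overlap, 208 (38.5%) were called higher between the pull-downs and 120 (22.2%) lower. Of the 827 that were lower in the inputs without overlap, 307 (37.1%) were called lower and 160 (19.3%) higher.

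For the single genes the pull-down differences went both ways. The unnamed probe was called lower in the pull-downs too (10.99 ± 0.14 for miR-199a-5p and 12.41 ± 0.11 for miR-424-3p, ± SD of 3 arrays, a difference of -1.42), and RTN4 was called lower at 11.59 ± 0.04 against 12.06 ± 0.06 (-0.47). SCAMP1 was called higher by 0.31 on its brightest probe, but its probes did not go the same way. ILMN_1729058 was called lower (-0.20, adjusted p = 0.0385 in limma's test), and ILMN_3251337 was not called (-0.01). RAB7A (-1.37), DLGAP4 (-1.43), a scaffold of synapses, and CFAP298 (-1.13) were called lower, and RNGTT (1.32), JARID2 (0.89) and CDCA4 (0.85) higher, each in the direction of its input. RAB21 was called in the opposite direction, higher by 0.53 in the pull-downs (means of 10.29 for miR-199a-5p and 9.76 for miR-424-3p), as was MGARP (0.45). Of the 98 nuclear and small RNAs, with their negative median between the inputs, 28 were called higher between the pull-downs and 3 lower (median 0.15). Of all genes 29.2% were called higher and 26.4% lower. The share of these RNAs called higher was thus near that of all genes, while the share called lower was far smaller. The 3 called lower were C/D snoRNAs. Of the 10 higher genes among the 31 below the threshold, 8 were called higher between the pull-downs and 0 lower, and of the 21 lower genes 11 were called lower and 2 higher.

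**Figure D5:**
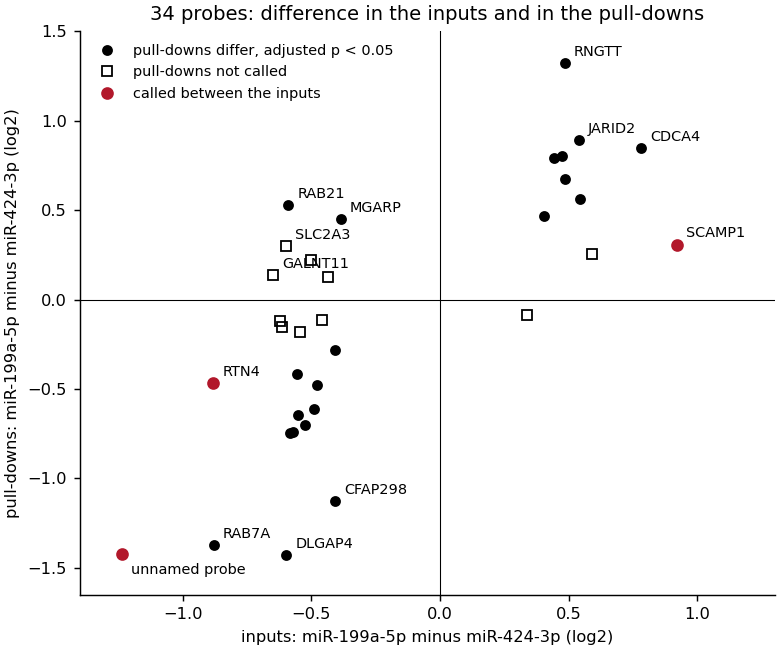
Difference between the pull-downs (miR-199a-5p minus miR-424-3p, log2, vertical axis) against that between the inputs (horizontal axis) for 34 probes, namely the 3 called between the inputs (red) and the 31 genes below the threshold. Filled points differ between the pull-downs at an adjusted p under 0.05 and open squares do not, and RAB21 and MGARP are the filled points with opposite directions.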

How the data were processed

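The 12 samples were grouped by the labels into inputs and pull-downs of 2 duplexes, 3 arrays each. The deposited log2 values were normalized by the authors with lumi (version 2.2.1 in the submitters' processing notes), per the study's methods with background adjustment, variance stabilization and robust spline normalization. How the 15329 listed probes were selected was not stated in these sources. The study calls the input total RNA, but how it was taken for these arrays was not stated either. A table of raw signals and detection p-values was left out, since the names of its 24 columns match no sample. Of the probes, 12432 had 1 symbol in the platform annotation, 2 had several and 2895 had none, and 12430 were found in RefSeq (GRCh38.p14) by identifier.

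A linear model of 4 groups over all 12 arrays (8 residual degrees of freedom) was fitted with limma 3.58.1 in R 4.3.3 using lmFit and eBayes. Contrasts are miR-199a-5p minus miR-424-3p, two-sided, with Benjamini-Hochberg adjustment over all probes, and called means an adjusted p under 0.05. The fit was run on simulated data with independent noise, which does not show how it behaves where arrays deviate together. Each gene was represented by its brightest probe over the 12 arrays. Named were called genes with separate groups (up to 15 each way), members of the reticulon, SCAMP, interferon and reported target lists, and up to 4 members with the largest differences of each other list. The comparison, the 32 gene lists and the markers were chosen with earlier results of these data known. Some genes outside this rule were chosen after their values were seen and are marked so, as are the ribosomal RNAs and the genes with several probes. Members of the silencing machinery and miR-16 lists beyond their 4 largest, and of the marker lists, were also given as examples. Lists are described by counts and medians, with no test. No transcript was searched for seed matches. Alternatives were other normalizations, array weights, a variance trend, a replicate block, one-sided tests, a 1.5-fold threshold, a mean of at least 9, the 6 inputs alone and leaving out arrays.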

Additional observations from a re-analysis of the deposited data

Results flagged for a closer look

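For 2 of the 3 probes called between the inputs, the difference between the pull-downs was not the same as that between the inputs, by limma's test of the difference of differences. On the SCAMP1 probe the pull-down difference minus the input difference was -0.61 ± 0.17 (adjusted p = 0.0117), with pull-down means of 11.91 ± 0.15 for miR-199a-5p and 11.61 ± 0.14 for miR-424-3p (SD, n = 3 each). On the RTN4 probe it was 0.41 ± 0.12 (adjusted p = 0.0163). Both probes were chosen for a large difference between the inputs, a choice that by itself favours a smaller one in any second comparison, so these tests do not show that the pull-downs differ less. For the unnamed probe the value was -0.19 ± 0.16 (adjusted p = 0.398).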

How the results depend on the processing

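The 3 called probes stayed called under quantile normalization, cyclic loess, median scaling, array weights, a variance trend, the replicate block, one-sided tests and the 1.5-fold threshold. Of the differences, those of 41 probes were followed under the alternatives and 0 changed sign, and the other named genes were not followed. Of 30 list medians 13 changed sign under at least 1 alternative, among them those of the RAB GTPases (-0.04 to 0.01), the reported targets (-0.06 to 0.0012), the reticulons (-0.09 to 0.02) and the SCAMPs (-0.15 to 0.10). Between the inputs, 1 probe was called higher and 2 lower. The count was 0 higher with only the 6 inputs, 2 higher with quantile normalization, 160 higher and 139 lower with array weights, 2 and 8 with a variance trend, 5 lower with one-sided tests, and 2 and 5 among probes with a mean of at least 9. Leaving out 1 input array gave 0 to 3 higher and 2 to 4 lower: 0 higher without miR-199a-5p replicate 3 or miR-424-3p replicate 3, 3 higher without miR-424-3p replicate 2 and 4 lower without miR-424-3p replicate 1. Without replicate 1 of both inputs, an alternative chosen after seeing the data, 0 were higher and 2 lower. Before adjustment, leaving out miR-199a-5p replicate 1 gave 1011 higher and 966 lower probes, against 317 and 333 without miR-424-3p replicate 1. Same-numbered inputs deviated together for number 1 (r = 0.51) but hardly for number 2 (r = 0.04) and number 3 (r = 0.11), so the numbers were not taken to pair samples. With the replicate number as a block, 4 probes were higher and 4 lower. Between the pull-downs, 1894 probes were higher and 1941 lower when 1.5-fold was also required, and 2349 were lower with the filter at a mean of 9. The cause of these changes was not tested, except that the filter and the left-out arrays leave fewer probes or samples in the test.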
